A study of Rattus norvegicus with 9 samples.

Results

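The probes described are those that a rat whole-genome oligonucleotide array places on the mitochondrial chromosome, together with the probes for the expressed sequence CF111195. They were 51 of the 41012 probes on the array: 49 with a position on chrM of the rn4 build, among them 2 of the 4 probes for CF111195, and the other 2 CF111195 probes, for which no position is given. CF111195 is a complementary DNA sequence from rat lung, and its probes were selected on their low ratio of sample to reference in cafeteria-fed rats, seen when the same arrays were first examined. Differences between the diets at the 51 probes are therefore a description, with no test of their own.

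The study measured peripheral blood mononuclear cells of 9 male Wistar rats. All were 6 months old at bleeding and had been assigned to a diet at 2 months of age. For 4 months the 4 control rats received standard chow, and the 5 cafeteria rats received a hypercaloric, fat-rich cafeteria diet besides chow. Blood was drawn in the fed state from the saphenous vein, and the cells were separated on Ficoll, which leaves lymphocytes and monocytes with some platelets. A further control animal was left out by the submitters for low RNA yield. RNA of 1 rat, labelled with Cy5, was hybridised to an array beside a reference labelled with Cy3, and the dyes were never swapped. The labels describe that reference as 1 pool made from all groups. Animals are named here by the numbers in the labels, 1, 4, 7 and 13 for controls and 1, 4, 7, 10 and 13 for cafeteria-fed rats. The labels do not say that a shared number pairs animals across diets, and they were not treated as pairs.

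Mitochondrial DNA is a small circular chromosome that encodes the small and large ribosomal RNAs of the mitochondrial ribosome, a set of transfer RNAs and a few subunits of the respiratory chain. Each of its strands is transcribed into long RNAs that are cut at the transfer RNAs into separate transcripts. The ribosomal RNAs lie at the start of the forward transcript, ahead of the protein-coding genes, and are among the most abundant RNAs of most cells. Nearly all protein-coding genes lie on the same strand as the ribosomal RNAs, and RNA of the other strand is mostly degraded.

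Each probe was assigned to the ribosomal RNA region, to the protein-coding genes or to other transcripts from its name, description, position and strand. The ribosomal RNA region was taken as the forward strand up to the end of the last placed CF111195 probe, because the files name no ribosomal RNA gene, and it held 12 probes. They were the 2 CF111195 probes without a position, 6 probes between bases 154 and 591, here called the first stretch, and 4 probes between bases 1284 and 1613, the second stretch. The protein-coding class held 18 forward-strand probes for ND2, COX1, COX2, ATP6, COX3, ND5 and CYTB, including 1 that is only described as COX II. The remaining 21 probes were classed as other transcripts, 4 on the forward and 17 on the reverse strand. The files give no exon or untranslated region for any probe. Probes of 1 stretch share targets: 5 of the 6 probes of the first stretch and all 4 of the second overlap another probe of their stretch, so they are not independent measurements.

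All 51 probes passed the filter on dim signals (Cy5 well above background on at least 4 of the 9 arrays), none was saturated in either dye, and all entered the fit over 25805 probes. In the fit by limma with Benjamini-Hochberg adjustment over all probes, 0 of the 51 passed an adjusted p of 0.05, beside 0 of 25805 (0.00%) in all. The lowest adjusted p of all was 0.085, for a CF111195 probe, and 1467 probes had an unadjusted p under 0.05, 12 of them among the 51, which were chosen with this comparison known. This count of calls turned on the background correction. A few spots with a very high local background distorted it on several arrays, and with those spots kept both CF111195 probes without a position passed (adjusted p = 0.037 for each); they were left out here after both results had been seen. It turned on single arrays too: without control 13, the same fit called 1 of these 2 probes (adjusted p = 0.0040) and 1 probe elsewhere in the genome, and without control 1 it called 2 probes, neither of them mitochondrial. Between 58.8% and 66.7% of the 43379 spots of an array had a Cy5 signal well above background, and the number of arrays limits the precision.

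Along the molecule, the lower ratios of cafeteria-fed rats lay almost wholly in the ribosomal RNA region; outside it, AI170501 alone had a log2 fold change under the highest value of that region. All 12 probes of that region had a negative log2 fold change (cafeteria over control, on the ratio of sample to reference), with a median of -0.68 and a range from -1.19 to -0.33. They include the 4 CF111195 probes, which were selected on their low ratio in these arrays, and 2 of these have no position. The 6 probes of the first stretch, none of them for CF111195, had a median of -0.64 and a range from -0.72 to -0.54. The 18 protein-coding probes, transcribed from the same strand further along, had a median of -0.016 and a range from -0.098 to 0.077, with 8 above and 10 below 0. The 21 other probes had a median of -0.084, with 5 above and 16 below 0. Over all 25805 probes the median was 0.0069, with 13584 above and 12221 below 0. With each array only centred on its median instead of loess-normalized, all 18 protein-coding probes lay above 0 (median 0.10), while the 12 of the ribosomal RNA region stayed below it (median -0.58).

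**Figure D1:**
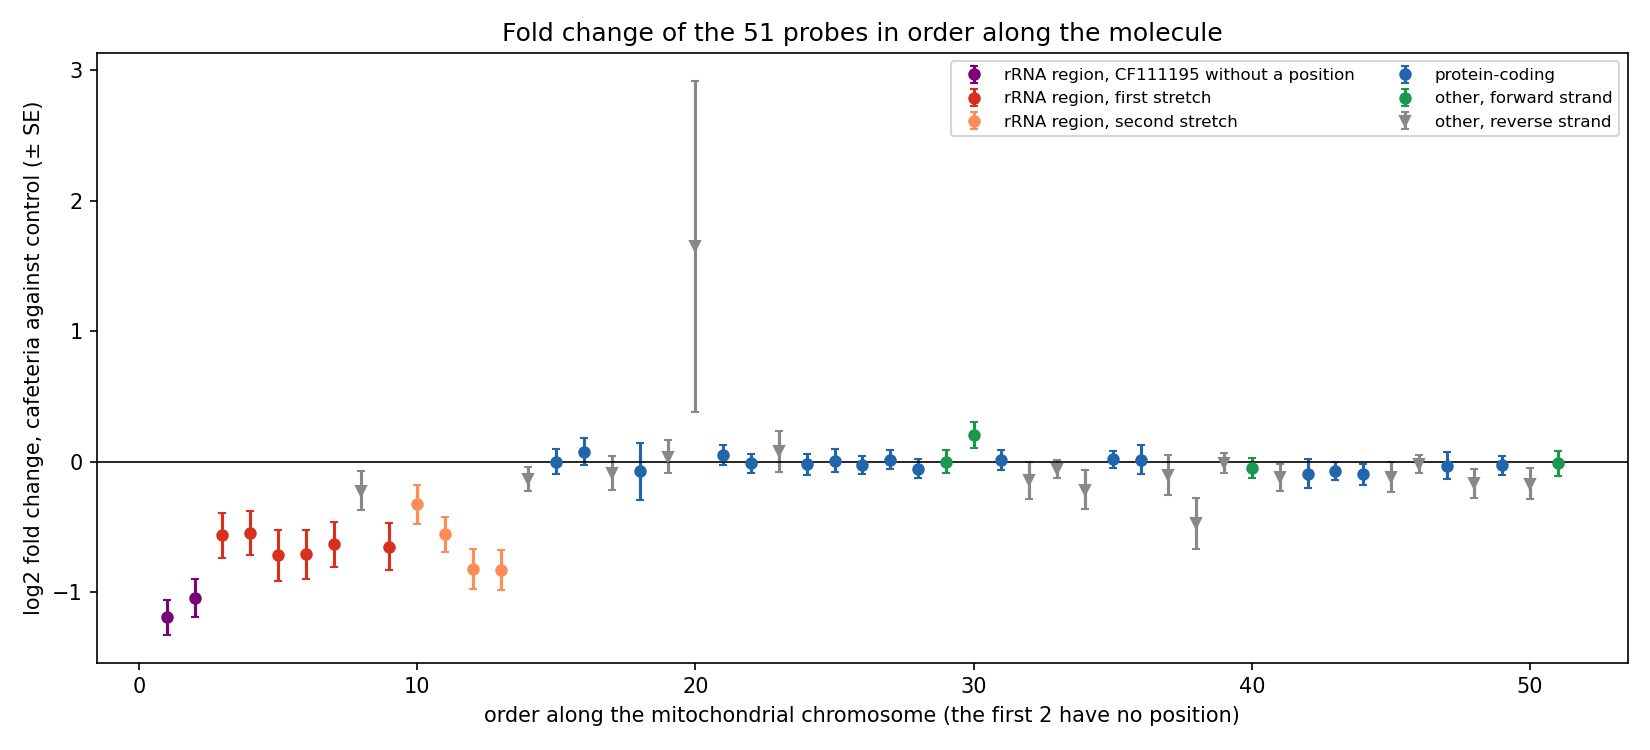
Log2 fold change of cafeteria over control (vertical axis, with the standard error of the limma fit) for the 51 probes in their order along the mitochondrial chromosome (horizontal axis, rank; the first 2 are the CF111195 probes without a position). The 12 probes of the ribosomal RNA region lie between -1.19 and -0.33, the 18 protein-coding probes between -0.098 and 0.077, and 1 reverse-strand probe, BI395793, stands at 1.65 with the widest error.

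The median log2 ratio of the 12 ribosomal probes was 0.073, 0.57, 0.64 and 0.58 in control animals 1, 4, 7 and 13, a mean of 0.46 ± 0.26 (SD, n = 4). It was -0.28, -0.16, -0.27, 0.057 and -0.12 in cafeteria animals 1, 4, 7, 10 and 13, a mean of -0.15 ± 0.14 (SD, n = 5). Control 1 was the lowest control and lay just above the highest cafeteria-fed animal, number 10. Arrays were printed on 7 slides, of which 5 held only 1 array of the series each and so 1 diet only. Within the 2 slides that held both diets, with 1 array of each, the median difference over the 12 probes was -0.43 and -0.53. The arrays also formed 2 groups by a part of the recorded date of image quantification, and the single dates within a group were not counted. Within these groups the median difference was -0.76 (2 control arrays and 1 cafeteria array) and -0.61 (2 and 4 arrays). The values of each dye follow, stretch by stretch.

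The 2 CF111195 probes without a position, A_44_P348286 and A_44_P348288, had the lowest fold changes of the 51. For A_44_P348286 the log2 ratio was 1.13, 1.48, 1.29 and 0.76 in control animals 1, 4, 7 and 13 and 0.10, 0.095, -0.13, -0.11 and -0.093 in cafeteria animals 1, 4, 7, 10 and 13. Every control lay above every cafeteria-fed animal, control 4 was the highest and control 13 the lowest control, and the 5 cafeteria values fell close together around 0. Its log2 fold change was -1.19 (SE 0.13), number 6 of the 25805 probes from the lowest, a rank on the ratio by which the probe was selected. For A_44_P348288 the log2 ratio was 0.84, 1.31, 0.75 and 0.49 in the controls and -0.18, 0.014, -0.27, -0.30 and -0.26 in the cafeteria-fed animals, in the same order of animals. The diets again did not overlap, with control 4 highest and control 13 lowest among controls, and the log2 fold change was -1.05 (SE 0.14).

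A ratio has a numerator and a denominator, and each dye was therefore quantile-normalized over the arrays on its own. In the Cy5 channel, which holds the animal's RNA, A_44_P348286 had a normalized log2 signal of 19.04, 18.77, 18.97 and 18.86 in control animals 1, 4, 7 and 13 and 18.74, 18.66, 18.58, 18.60 and 18.62 in cafeteria animals 1, 4, 7, 10 and 13. The diets did not overlap, but the difference was -0.27 (SE 0.087), a small part of the fold change of the ratio. In the Cy3 channel, which holds the reference pool, the same probe had 16.02, 15.76, 15.83 and 16.34 on the arrays of the controls and 16.66, 17.05, 16.71, 17.15 and 16.73 on those of the cafeteria-fed animals. Every cafeteria array lay above every control array in the reference, with a difference of 0.87 (SE 0.12). For A_44_P348288 the Cy5 signal was 18.22, 18.27, 18.32 and 18.22 in controls and 18.02, 17.94, 17.91, 17.90 and 18.22 in cafeteria-fed animals, with cafeteria 13 inside the range of the controls and a difference of -0.26 (SE 0.092). Its Cy3 signal was 15.59, 15.37, 15.73 and 16.00 on control arrays and 16.36, 16.24, 16.36, 16.45 and 16.52 on cafeteria arrays. Again the reference, not the sample, held most of the difference, 0.72 (SE 0.10). With each channel only centred on its array median, a choice made after the values were seen, the differences were -0.40 and -0.34 in Cy5 and 0.72 and 0.63 in Cy3.

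**Figure D2:**
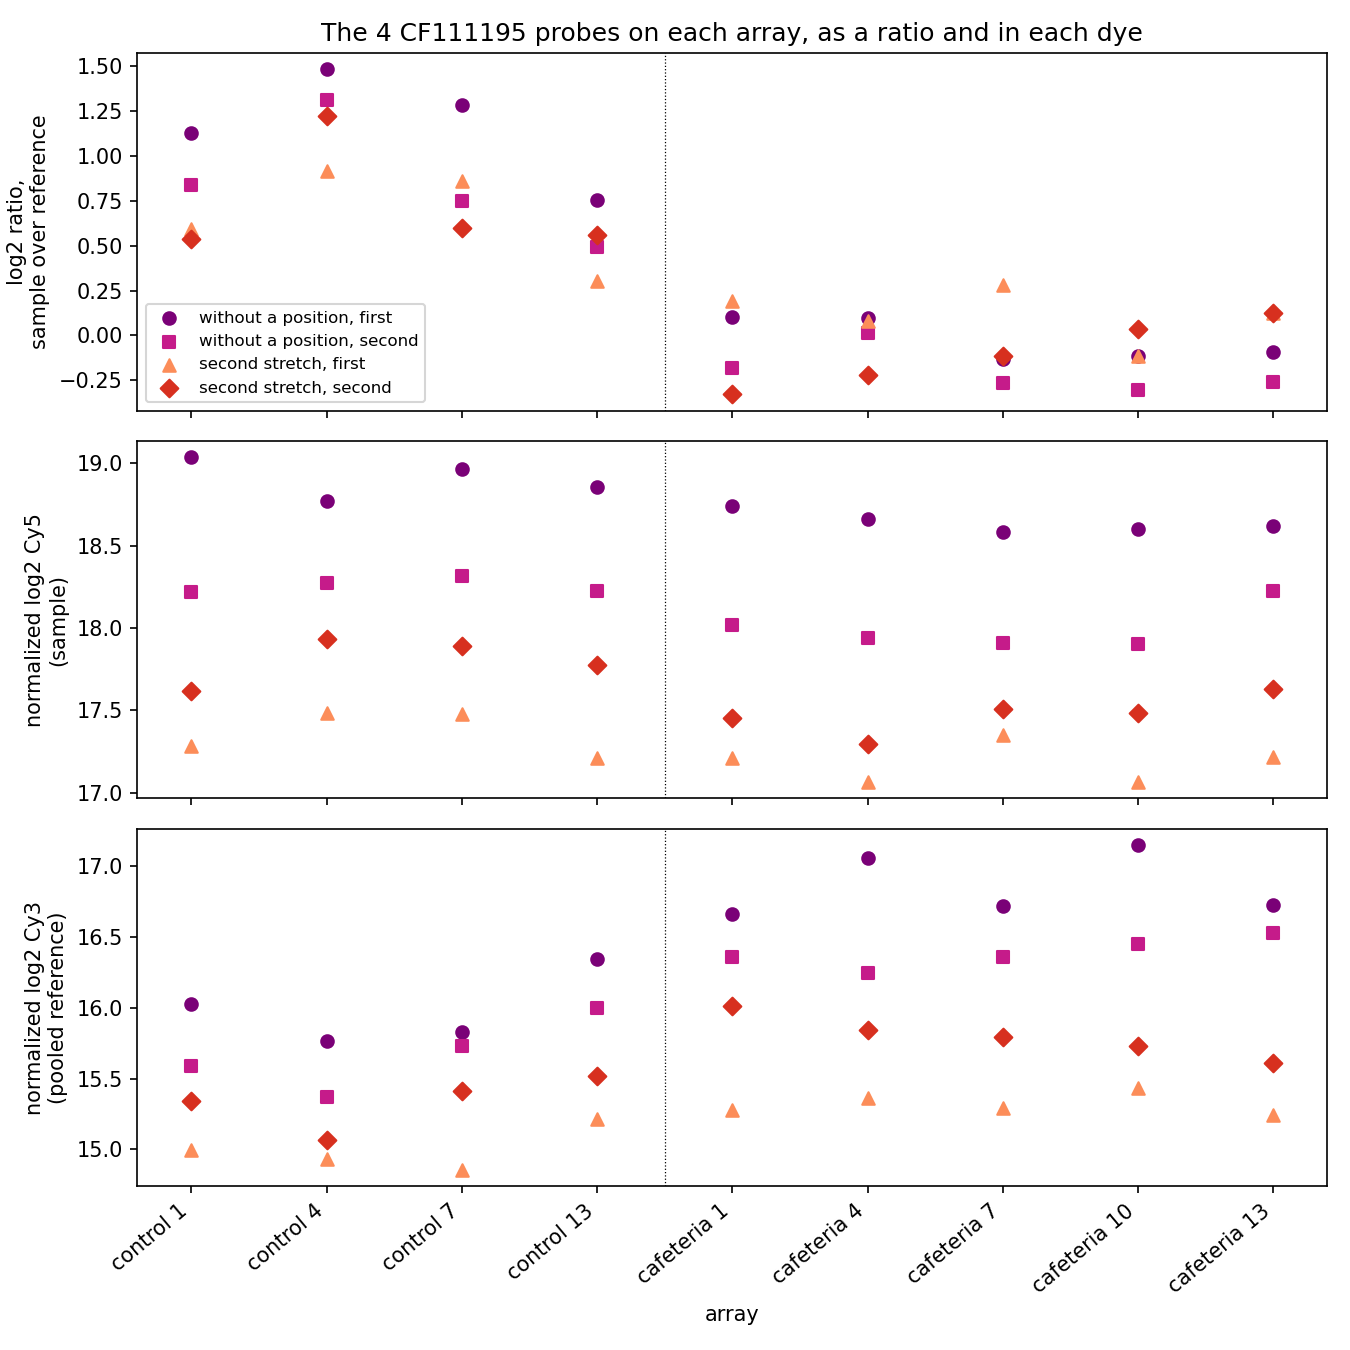
The 4 CF111195 probes on each of the 9 arrays: log2 ratio of sample over reference (top), normalized log2 Cy5 signal of the sample (middle) and normalized log2 Cy3 signal of the pooled reference (bottom), controls left of the dotted line. For the 2 probes without a position the Cy3 signal is higher on all 5 cafeteria arrays than on all 4 control arrays; levels of different probes are not to be compared.

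The reference is labelled as the same pool on every array, so its signal at a probe carries no label of diet. Counted from the highest Cy3 difference (cafeteria minus control), these 2 probes were numbers 3 and 5 of 25805, and the lowest adjusted p of a limma fit on Cy3 alone was 0.091, for both of them. That fit called 0 probes, with 708 at an unadjusted p under 0.05, and the fit on Cy5 alone called 0, with 1458. Of the 51 mitochondrial probes, 5 had a higher Cy3 signal on every cafeteria array than on every control array, beside 93 of 25654 probes (0.363%); they were the 4 CF111195 probes and the probe named Ttr. The same 5 were the only ones of the 51 whose ratio was lower on every cafeteria array, beside 306 of 25654 (1.19%). The CF111195 probes were selected on that low ratio in these arrays, and the Ttr probe overlaps a CF111195 probe. Cy3 is the denominator of the ratio, so neither count can be read as an excess over the share of all probes. For the same reason the Cy3 ranks of 3 and 5 and the adjusted p of 0.091 are not independent of that selection, and they are given as values only. None of the 51 had a higher ratio on every cafeteria array (208 of 25654 probes, 0.811%), and none had a lower Cy3 signal on every cafeteria array (109, 0.425%). In Cy5 alone, 2 of the 51 were lower on every cafeteria array, A_44_P348286 and the reverse-strand AA955406 probe, beside 223 of 25654 (0.869%). AA955406 was dim, with a signal well above background on 6 of the 9 arrays in Cy5 and on 0 in Cy3. Both CF111195 probes without a position were so bright that both dyes were taken from the scan at the low detector setting on all 9 arrays. Over the 425 probes read that way on all arrays, 12 of them among the 51, the median Cy3 difference was -0.019, the range -0.50 to 0.87, and the median log2 fold change of the ratio 0.0097. The part of brightness or of the detector setting in the Cy3 difference was not tested.

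In the second stretch of the ribosomal RNA region both dyes held part of the difference. Its 4 forward-strand probes had log2 fold changes from -0.83 to -0.33, with a median of -0.69. The CF111195 probe at chrM:1289-1348 had log2 ratios of 0.60, 0.92, 0.86 and 0.30 in control animals 1, 4, 7 and 13 and 0.19, 0.080, 0.28, -0.12 and 0.13 in cafeteria animals 1, 4, 7, 10 and 13. Control 13 and cafeteria 7 all but met, and the log2 fold change was -0.56 (SE 0.13). The CF111195 probe at chrM:1557-1613 had 0.54, 1.22, 0.60 and 0.56 in the controls and -0.33, -0.22, -0.11, 0.038 and 0.13 in the cafeteria-fed animals. Control 4 stood far above the other 3 controls, the diets did not overlap, and the log2 fold change was -0.83 (SE 0.15). A probe that the array design names Ttr, after the plasma protein transthyretin, lies at chrM:1530-1589 and overlaps the last CF111195 probe; its log2 fold change was -0.82 (SE 0.15). The fourth, TC639599 at chrM:1284-1346, was not read at the low detector setting in either dye and had -0.33 (SE 0.15), with overlapping diets.

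In Cy3 the first of these CF111195 probes had 15.00, 14.93, 14.85 and 15.22 on control arrays and 15.28, 15.36, 15.29, 15.44 and 15.24 on cafeteria arrays, and the second had 15.34, 15.06, 15.41 and 15.52 and 16.01, 15.84, 15.79, 15.73 and 15.61. Both sets of cafeteria arrays lay above all control arrays, though cafeteria 13 and control 13 were close for each probe. Over the 4 probes the Cy3 difference ran from 0.24 to 0.46 and the Cy5 difference from -0.37 to -0.048. The medians were 0.36 in Cy3 and -0.26 in Cy5, and with centring alone 0.29 and -0.31, so which dye held more turned on the scaling. TC639599 did not separate the arrays in Cy3. Within the 2 slides that held both diets, the median log2 difference of the ratio was -0.61 and -0.47 for the second stretch and -1.02 and -0.83 for the 2 probes without a position.

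In the first stretch the difference lay mostly in Cy5. Its 6 probes, 1 for CB314431, 1 for AW920832 and 4 for AW914778, had log2 fold changes from -0.72 to -0.54 with a median of -0.64. Their median log2 ratio was -0.050, 0.36, 0.50 and 0.66 in control animals 1, 4, 7 and 13 and -0.46, -0.21, -0.68, 0.18 and -0.20 in cafeteria animals 1, 4, 7, 10 and 13. Control 1 lay below cafeteria 10, so the diets overlapped, and none of the 6 probes separated them. The median Cy5 signal was 16.13, 16.20, 16.62 and 16.81 in the controls and 15.77, 15.87, 15.80, 16.41 and 16.18 in the cafeteria-fed animals, while the median Cy3 signal was 14.62, 14.42, 14.47 and 14.56 and 14.59, 14.59, 14.82, 14.69 and 14.66 on the same arrays. Controls 1 and 4 lay below cafeteria 10 in Cy5, and the Cy3 values of the diets overlapped. By probe, the Cy5 difference ran from -0.58 to -0.34 and the Cy3 difference from -0.047 to 0.23. Within the 2 slides the median difference of the ratio was -0.42 and -0.51. The single-probe standard errors in this stretch were 0.17 to 0.19. Whether the first stretch and the others differ in their split between dyes was not tested.

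**Figure D3:**
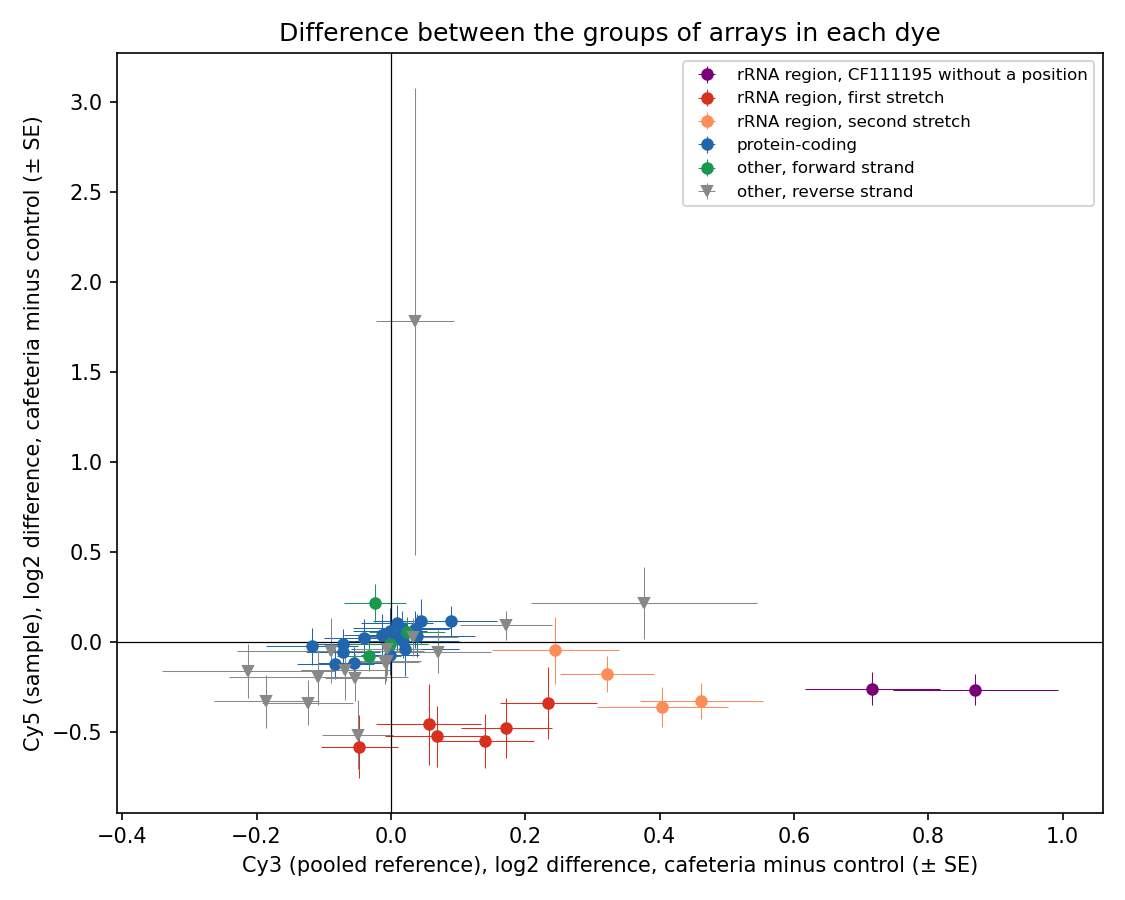
Difference between cafeteria and control arrays in Cy5, the sample (vertical axis), against that in Cy3, the pooled reference (horizontal axis), on the log2 scale with standard errors, for the 51 probes. The 2 CF111195 probes without a position lie at 0.87 and 0.72 in Cy3 and near -0.26 in Cy5, the first stretch lies between -0.58 and -0.34 in Cy5, and the protein-coding probes cluster around 0 in both dyes.

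**Figure D4:**
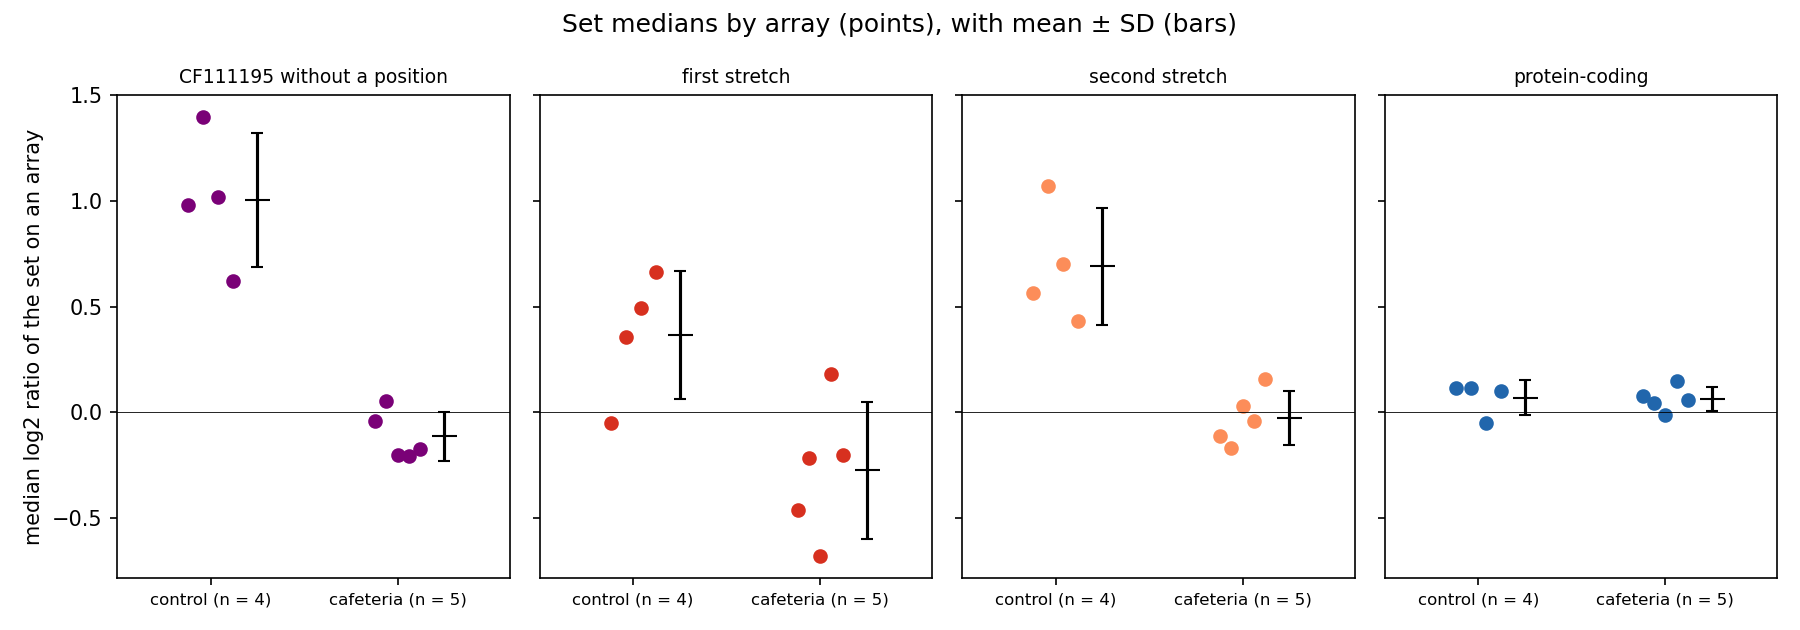
Median log2 ratio of sample over reference on each array (points) for 4 sets of probes, by diet, with the mean and SD over arrays (bars). The diets are apart for the CF111195 probes without a position and the second stretch, overlap by control 1 and cafeteria 10 in the first stretch, and lie at means of 0.070 and 0.063 for the protein-coding probes.

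The fold changes of the protein-coding genes lay near 0. The 18 probes spanned bases 4159 to 15024, had standard errors of 0.066 to 0.22, and none separated the diets. Their median log2 ratio was 0.12, 0.11, -0.052 and 0.10 in control animals 1, 4, 7 and 13 and 0.079, 0.044, -0.012, 0.15 and 0.058 in cafeteria animals 1, 4, 7, 10 and 13. Control 7 was the lowest of all 9 animals, and the means were 0.070 ± 0.082 (SD, n = 4) and 0.063 ± 0.058 (SD, n = 5). Differences per dye were small in both channels, from -0.12 to 0.12 in Cy5 and from -0.12 to 0.089 in Cy3. For each gene the probe with the highest mean Cy5 signal is given below.

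ND2 and ND5 are core subunits of complex I, which takes electrons from NADH. For the ND2 probe at chrM:4448-4507 the log2 ratio was -0.054, -0.028, -0.18 and 0.037 in control animals 1, 4, 7 and 13 and -0.15, -0.23, 0.069, 0.24 and 0.16 in cafeteria animals 1, 4, 7, 10 and 13. Cafeteria 10 was the highest and cafeteria 4 the lowest animal, so the diets overlapped throughout, and the log2 fold change was 0.077 (SE 0.10). The ND5 probe at chrM:12852-12911 had -0.17, -0.016, -0.24 and 0.18 in the controls and -0.29, -0.35, -0.11, -0.082 and 0.073 in the cafeteria-fed animals. Control 13 stood highest and cafeteria 4 lowest, and the log2 fold change was -0.090 (SE 0.11). Normalized log2 Cy5 signals were 13.14 ± 0.071 (SD) in the 4 controls and 13.11 ± 0.17 (SD) in the 5 cafeteria-fed rats for ND2, and 13.38 ± 0.16 (SD) in the 4 controls and 13.31 ± 0.16 (SD) in the 5 cafeteria-fed rats for ND5.

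CYTB encodes cytochrome b, the mitochondrially encoded subunit of complex III, and ATP6 encodes a subunit of the proton channel of ATP synthase. The CYTB probe at chrM:14965-15024 had log2 ratios of 0.25, 0.34, 0.078 and 0.18 in the controls and 0.25, 0.20, 0.13, 0.24 and 0.11 in the cafeteria-fed animals. Controls spanned a wider range than cafeteria-fed animals, whose values all fell within it, and the log2 fold change was -0.027 (SE 0.073). The other 3 CYTB probes, upstream of it, had log2 fold changes of -0.070, -0.098 and -0.031. For the ATP6 probe at chrM:8305-8364 the log2 ratio was 0.12, 0.22, 0.0034 and 0.053 in the controls and 0.14, 0.055, 0.13, 0.10 and 0.16 in the cafeteria-fed animals. Control 4 was highest and control 7 lowest, with all cafeteria values between them, and the log2 fold change was 0.019 (SE 0.066). Cy5 signals were 15.05 ± 0.080 (SD) in the 4 controls and 15.07 ± 0.057 (SD) in the 5 cafeteria-fed rats for CYTB, and 16.17 ± 0.042 (SD) in the 4 controls and 16.28 ± 0.16 (SD) in the 5 cafeteria-fed rats for ATP6.

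COX1, COX2 and COX3 form the catalytic core of complex IV, cytochrome c oxidase. The COX1 probe at chrM:6402-6461 had log2 ratios of 0.070, 0.45, -0.45 and 0.37 in control animals 1, 4, 7 and 13 and -0.44, 0.13, -0.094, -0.0084 and 0.58 in cafeteria animals 1, 4, 7, 10 and 13. It varied most among animals of all protein-coding probes, from control 7 at the bottom to cafeteria 13 at the top, and its log2 fold change was -0.075 (SE 0.22). The COX2 probe at chrM:7585-7644 had 0.20, 0.063, 0.16 and 0.051 in the controls and 0.27, 0.13, 0.094, 0.19 and -0.030 in the cafeteria-fed animals. The diets overlapped and the log2 fold change was 0.012 (SE 0.076). The other 6 probes named COX2 had log2 fold changes from -0.053 to 0.050, and the probe described as COX II but named NP072018 had -0.024. The COX3 probe at chrM:8715-8774 had 0.11, 0.027, -0.37 and 0.15 in the controls and -0.10, -0.080, -0.037, 0.15 and 0.043 in the cafeteria-fed animals. Control 7 was again the lowest, and the log2 fold change was 0.016 (SE 0.11). Cy5 signals of the COX1 probe were 17.27 ± 0.24 (SD) in the 4 controls and 17.23 ± 0.25 (SD) in the 5 cafeteria-fed rats. For COX2 they were 18.10 ± 0.13 (SD) in the 4 controls and 18.18 ± 0.096 (SD) in the 5 cafeteria-fed rats, and for COX3 14.41 ± 0.25 (SD) in the 4 controls and 14.47 ± 0.16 (SD) in the 5 cafeteria-fed rats.

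Of the 21 other probes, the 4 on the forward strand had a median log2 fold change of -0.0060 (range -0.050 to 0.21), and the 17 on the reverse strand had -0.12 (-0.47 to 1.65), 14 below and 3 above 0. None separated the diets by ratio. Within the 2 slides that held both diets the reverse-strand median was 0.22 in one and -0.25 in the other, opposite in sign. The lowest was AI170501 on the reverse strand at chrM:9500-9559. Its log2 ratio was 0.29, 0.097, 0.69 and 0.038 in control animals 1, 4, 7 and 13 and 0.27, -0.22, 0.00026, -0.72 and -0.29 in cafeteria animals 1, 4, 7, 10 and 13. Control 7 was highest and cafeteria 10 lowest, cafeteria 1 lay among the controls, and the log2 fold change was -0.47 (SE 0.19), held by Cy5 (-0.52) rather than Cy3 (-0.049).

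Next was S63167 at chrM:516-575, on the reverse strand opposite the first ribosomal stretch, which the array describes as a steroid dehydrogenase. Log2 ratios at this probe were -0.28, -0.21, 0.42 and 0.13 in the controls and 0.023, -0.33, -0.44, -0.13 and -0.15 in the cafeteria-fed animals. The diets overlapped, with control 7 highest and cafeteria 7 lowest, and the log2 fold change was -0.22 (SE 0.15). In this case both dyes were higher on cafeteria arrays, by 0.21 (SE 0.20) in Cy5 and 0.38 (SE 0.17) in Cy3.

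At the other end, CF111229, on the forward strand at chrM:7537-7595, had log2 ratios of 0.021, -0.18, -0.20 and -0.16 in the controls and -0.16, 0.19, 0.036, 0.29 and 0.018 in the cafeteria-fed animals. Cafeteria 10 and 4 were highest and control 7 lowest, with overlap, and the log2 fold change was 0.21 (SE 0.097). This probe lies within the span of the COX2 probes and overlaps the COX2 probe at chrM:7585-7644. The forward-strand BG667906 probe, at chrM:7525-7584, lies within that span too. Both were classed by their names, so the median of the other forward-strand probes is in part a value from the COX2 span. The highest fold change belonged to BI395793, on the reverse strand at chrM:6933-6992. Its log2 ratio was -3.94, 0.87, -3.98 and 0.93 in control animals 1, 4, 7 and 13 and 0.97, 0.79, 0.75, -3.13 and 1.23 in cafeteria animals 1, 4, 7, 10 and 13. Controls 1 and 7 and cafeteria 10 stood far below the other 6 animals, so the log2 fold change of 1.65 (SE 1.27) rests on how those 3 fall between the diets; it was 0.85 without control 1, 0.83 without control 7, 2.46 without cafeteria 10 and at most 2.47, without control 13. The separation was in the sample: Cy5 signals were 8.42, 13.31, 8.47 and 13.54 in the controls and 13.55, 13.44, 13.42, 9.15 and 14.02 in the cafeteria-fed animals. The reference was even, with Cy3 signals of 11.23, 11.16, 11.20 and 11.18 and 11.15, 11.28, 11.24, 11.09 and 11.37.

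Probes on opposite strands overlapped at several places, so that the strands can be set side by side there. Opposite the first stretch, S63167 shares 54 bases with an AW914778 probe of log2 fold change -0.63 (SE 0.18), against -0.22 (SE 0.15) for S63167. Opposite COX1, BF285222 shares 52 bases with the COX1 probe above, and the log2 fold changes were 0.040 (SE 0.13) and -0.075 (SE 0.22). BF286392 shares 49 bases with a COX2 probe, with 0.079 (SE 0.16) against -0.020 (SE 0.078). BF282429 shares 58 bases with a CYTB probe, with -0.17 (SE 0.11) against -0.031 (SE 0.10). No difference between the strands was tested.

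Transcription and processing of mitochondrial RNA depend on proteins made from nuclear genes, such as the polymerase Polrmt, the DNA-packaging factor Tfam and the initiation factor Tfb2m. Of 48 such genes listed, 40 were measured. In the limma fit 0 passed the threshold in either direction and 1 had an unadjusted p under 0.05, beside 1467 of all 25805 probes. The median log2 fold change was 0.046, with 30 above and 10 below 0, beside 0.0069 over all probes. That 1 gene was Ppargc1b, a coactivator of mitochondrial biogenesis, at -0.42 (SE 0.11). Among genes with a value above 0, the smallest p-values belonged to Fastk, Lrpprc and Twnk, at 0.14 (SE 0.069), 0.15 (SE 0.092) and 0.11 (SE 0.074). Lrpprc stabilises mitochondrial messenger RNAs, and Twnk is the replicative helicase. Below 0, Gabpa and Mterf4 followed at -0.064 (SE 0.072) and -0.055 (SE 0.070). Polrmt, Tfam and Tfb2m had 0.076 (SE 0.071), 0.054 (SE 0.061) and 0.035 (SE 0.099).

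Markers of the blood cells that such a preparation can hold were set beside these values. Cells differ in their mitochondrial content, and in bulk RNA fewer cells of a type and less RNA per cell cannot be told apart. Of 8 erythroid markers 6 were measured, all above 0 with an unadjusted limma p under 0.05 and none past the adjusted threshold. Over all 25805 probes, 1467 had an unadjusted p under 0.05, 489 of them above 0. The mean log2 ratio of the erythroid markers ranged from -1.06 to -0.75 in controls and -0.61 to -0.0053 in cafeteria-fed animals, without overlap. Of single probes, 208 of 25654 (0.811%) were higher on every cafeteria array. Of 10 platelet markers 7 were measured and all lay below 0; their mean ranged from -0.37 to 1.39 in controls and -0.79 to 0.39 in cafeteria-fed animals, control 4 being highest. Of 10 T-cell markers 9 were measured, all below 0, with a range from -0.22 to 0.15 in controls and -0.52 to 0.062 in cafeteria-fed animals. For B cells (6 of 7 measured, 6 above and 0 below 0) the mean ranged from -0.30 to 0.27 in the controls and from -0.24 to 0.38 under the cafeteria diet. For NK cells (6 of 6 measured, 5 above and 1 below 0) the mean ranged from -0.38 to -0.084 in the controls and from -0.15 to 0.45 under the cafeteria diet. The remaining lists overlapped between the diets too. For monocytes (7 of 7 measured, 2 above and 5 below 0) the mean ranged from -0.48 to 0.34 in the controls and from -0.85 to 0.39 under the cafeteria diet. For neutrophils (5 of 8 measured, 1 above and 4 below 0) the mean ranged from -0.31 to 0.19 in the controls and from -0.43 to 0.32 under the cafeteria diet. Besides the erythroid markers, 2 of the 6 NK-cell markers, both above 0, had an unadjusted limma p under 0.05. So did 1 of the 9 T-cell markers, below 0, and none of the B-cell, platelet, monocyte or neutrophil markers. No marker of any list passed the adjusted threshold. Their part in the ratios of the ribosomal RNA region was not tested.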

How the data were processed

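The authors deposited 1 scanner file per array, with the mean spot intensity and median local background intensity of each dye and, per the file headers (Agilent Feature Extraction 9.5.1.1), the software's own log10 of red over green signal, already background-subtracted and dye-normalized. A table of log2 values per spot, also deposited by the authors, holds values for 21466 of the 45018 spots in the scanner files; how it was normalized, centred or set against the reference is not given in the sources used here.

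From the intensities, spots with a local background over 3 times the median of their array in either dye were left out (0 to 53 per array). Without this, normexp placed the 5th percentile of corrected Cy5 at 1257 on cafeteria 4 and 768 on control 4, beside 65.4 and 64.1 with it. The limit was chosen after the results without it, and with 10, 5, 3 and 2 times, had been seen. Background was corrected by normexp (offset 50), ratios were loess-normalized within arrays with control spots at weight 0, and spots of 1 probe were averaged, leaving out non-uniform and outlier spots. Probes with Cy5 well above background on at least 4 arrays were kept (25805 of 41012). Diets were compared with limma 3.58.1 (lmFit, eBayes) on all 9 arrays, without covariates, adjusted by Benjamini-Hochberg at 0.05; R was 4.3.3, data.table had version 1.17.8 and statmod 1.5.0; figures used Python 3.11.15 and matplotlib 3.10.9. Each dye alone was quantile-normalized. Positions are those of the files (rn4). On simulated ratios for 25654 probes, this fit recovered 90% of 100 probes changed by 1 log2 unit and 100% of 100 changed by 2, with 9 false calls. The simulation gave each probe independent normal noise, so these shares do not give the power on the real arrays.

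Members and lists were chosen with earlier results of these data known. Values are given per array for every CF111195 probe, for the probe of highest mean Cy5 signal of each protein-coding gene, and for the 2 lowest and 2 highest fold changes of the other probes; the Ttr probe was named outside that rule, after its values were seen. Alternatives covered background, normalization, filters, blocks, weights and single arrays. Same-numbered animals of the 2 diets had correlations of deviations from -0.18 to 0.13, and the labels give them no common source, so no pairing was used. Probe sequences were not used here.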

Additional observations from a re-analysis of the deposited data

Results flagged for a closer look

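Among the 15 probes given by array and the 3 class medians, 36 groups of values were examined for 1 animal far from the rest of its diet, and 4 had one; chance gives about 1 in 20 such groups. At the CF111195 probe of the second stretch that starts at base 1557, control 4 had a log2 ratio of 1.22, while the other 3 controls lay between 0.54 and 0.60. At BI395793, cafeteria 10 had -3.13, while the other 4 cafeteria-fed animals lay between 0.75 and 1.23. The median over the ribosomal RNA region was 0.073 in control 1, against 0.57 to 0.64 in the other controls. The median over the protein-coding genes was -0.052 in control 7, against 0.10 to 0.12 in the other controls.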

How the results depend on the processing

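The count of 0 probes called stayed at 0 under 24 of 27 alternatives; leaving out single arrays gave 0 to 2 (2 without control 1 and 2 without control 13), and keeping the spots of high local background, an alternative added after the data were seen, gave 2. Leaving out spots over 10, 5 or 2 times the median background, also added later, gave 0 each, with lowest adjusted p-values of 0.079, 0.081 and 0.088. With the slide as a block in the limma fit the lowest adjusted p was 0.9998. Only the 2 slides that held both diets inform that contrast, which leaves little to estimate its error. This value therefore does not show whether the slide accounts for the differences. The median log2 fold change of the ribosomal RNA region was -0.35 in Cy5 alone and 0.24 in the Cy3 reference alone, the sign of the latter being that of the denominator; it was -0.82 to -0.60 without single arrays and below 0 in every alternative other than Cy3 alone. The protein-coding median was 0.10 with median centring, 0.15 with the authors' deposited values and 0.026 once these were centred, and -0.063 to 0.020 without single arrays. The median of the other probes was 0.046 with the authors' deposited values and -0.15 to -0.029 without single arrays. Of 405 values of the 15 named probes under alternatives, 380 moved by less than the spread between animals. The replicate block, on the 8 arrays with shared numbers, gave 0 calls and a ribosomal median of -0.80; no same-numbered controls correlated best with their own number, and no call changed. The 2 groups by a part of the recorded date of image quantification as a block, added later, gave 0 calls and -0.66. The cause of these shifts was not tested. With 4 and 5 arrays, differences in single probes near their standard errors cannot be resolved.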
